A study of Mus musculus with 12 samples.

Results

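The creatine cycle genes described here are Ckb, Ckmt2, Slc6a8, Gatm, Gamt and Alpl. They were taken as a list by name, with no measured value in the rule. Earlier results of these data were, however, known when the list was chosen. Of these 6 genes, 5 have a row among the 14159 genes of the normalized counts, and all 5 passed the filter on low expression. Ckmt2, the mitochondrial creatine kinase of striated muscle and thermogenic fat, has no row and was not analysed here, and the planned check of Ckmt2 against skeletal muscle signal could therefore not be made.

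Polyadenylated RNA of whole inguinal white adipose tissue (iWAT) was sequenced from mice with and without ATF4 in adipocytes, at room temperature (RT) and after 24 h of cold exposure. The comparisons ask how iWAT responds to cold during browning, the appearance of thermogenic (beige) adipocytes in white fat, and whether ATF4, a transcription factor of the integrated stress response, takes part. There were 4 groups of 3 biological replicates, named Atf4WT RT, Atf4WT cold, Atf4AKO RT and Atf4AKO cold, with replicates numbered 0, 1 and 2. All mice carried floxed Atf4 alleles (Atf4 flox/flox) on a C57BL/6 background. Atf4AKO mice also carried Adipoq-Cre, which acts in adipocytes, whereas the Atf4WT littermates had no Cre. The other cells of the tissue keep Atf4 in both genotypes, and control mice with Cre alone were not part of the groups.

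Creatine is made in a pair of enzymatic steps, imported into cells by a sodium-coupled transporter and phosphorylated by creatine kinases. In thermogenic adipocytes, phosphorylation of creatine by mitochondrial ATP and renewed hydrolysis of phosphocreatine form a futile creatine cycle that turns over ATP and releases heat independently of UCP1. GATM (arginine:glycine amidinotransferase) and GAMT (guanidinoacetate methyltransferase) synthesize creatine, SLC6A8 imports it, CKB is the creatine kinase B that was placed in this cycle in fat, and ALPL (tissue-nonspecific alkaline phosphatase) is a phosphatase that can hydrolyse phosphocreatine.

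The genes lie at separate loci of the mouse genome (mm10, GRCm38). Gamt (NM_001347119) lies on the minus strand at chr10:80258151-80261012, Gatm (NM_025961) on the minus strand at chr2:122594467-122611303, and Slc6a8 (NM_001142809) on the plus strand at chrX:73673150-73682502. Ckb (NM_021273) lies on the minus strand at chr12:111669361-111672338 and Alpl (NM_007431) on the minus strand at chr4:137741733-137796384. In the basic GENCODE annotation of this build, no other gene overlaps any of the 5. RefSeq promoter windows, from 250 bases before to 50 bases after a transcription start (GRCm38.p6), were matched for 4 of the 5 genes. The windows of Gamt, Gatm and Alpl are shown because these are the genes that changed with cold exposure. All are written 5′ to 3′ on the minus strand, with matches to the motifs searched in capitals. Gamt lies at chr10:80260963-80261262 and Gatm at chr2:122611228-122611527. Alpl has a first window at chr4:137796335-137796634 and a second at chr4:137766426-137766725, the latter within the gene.
Gamt: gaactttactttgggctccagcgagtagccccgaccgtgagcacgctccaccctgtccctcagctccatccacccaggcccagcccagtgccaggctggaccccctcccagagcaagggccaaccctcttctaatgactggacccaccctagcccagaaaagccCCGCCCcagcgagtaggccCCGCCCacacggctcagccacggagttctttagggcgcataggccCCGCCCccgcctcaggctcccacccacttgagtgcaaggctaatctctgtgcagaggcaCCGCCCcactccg
Gatm: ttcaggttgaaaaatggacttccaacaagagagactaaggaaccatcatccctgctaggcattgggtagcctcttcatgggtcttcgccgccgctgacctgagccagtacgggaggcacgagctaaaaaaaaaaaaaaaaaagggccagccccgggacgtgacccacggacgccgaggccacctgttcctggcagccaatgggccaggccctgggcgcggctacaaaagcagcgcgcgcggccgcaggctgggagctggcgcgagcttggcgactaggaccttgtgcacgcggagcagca
Alpl first: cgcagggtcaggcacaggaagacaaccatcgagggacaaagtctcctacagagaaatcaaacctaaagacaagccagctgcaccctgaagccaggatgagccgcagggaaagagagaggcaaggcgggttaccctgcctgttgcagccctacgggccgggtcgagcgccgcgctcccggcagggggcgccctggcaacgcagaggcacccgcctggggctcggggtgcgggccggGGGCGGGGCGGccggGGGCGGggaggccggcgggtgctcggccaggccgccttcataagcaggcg
Alpl second: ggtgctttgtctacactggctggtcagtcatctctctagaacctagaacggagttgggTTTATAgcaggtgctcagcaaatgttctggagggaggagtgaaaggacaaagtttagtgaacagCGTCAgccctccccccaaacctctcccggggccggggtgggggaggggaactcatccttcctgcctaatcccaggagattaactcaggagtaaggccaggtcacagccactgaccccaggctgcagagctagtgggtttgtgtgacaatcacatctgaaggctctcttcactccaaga
The motifs were searched on both strands. They were the cAMP response element CRE (TGACGTCA), the short CRE (TGACG), which is part of the CRE, the C/EBP-ATF response element CARE (TGATGNAAT), an estrogen-related receptor element (TCAAGGTCA), the GC box (GGGCGG) and the TATA box (TATAAA). The Gamt window holds 4 GC boxes, all read on the opposite strand, and so printed as their reverse complement. The first Alpl window holds 3 GC boxes, of which the first and second share 1 base. The second Alpl window holds a short CRE and a TATA box, both on the opposite strand. The Gatm window holds no match to these letters. The Ckb window holds a TATA box that begins 28 bases before the start. GC boxes were found in 35.6% of the 32817 promoter windows of the table, TATA boxes in 13.6% and the short CRE in 20.8%. The full CRE was found in 1.79%, the CARE in 0.966% and the estrogen-related receptor element in 0.424% of the windows, but not in those of the creatine cycle genes. These matches describe letters and not bound sites.

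Reads on the listed genes ranged from 25719476 to 29105147 per library. Reads of Atf4 were fewer in the Atf4AKO libraries, with normalized counts of 788 to 1639 in Atf4AKO and 4107 to 7644 in Atf4WT, and the 2 ranges did not overlap. Markers of adipocytes were present, as all 8 white adipocyte genes and all 12 thermogenic adipocyte genes examined are listed, and Ucp1 rose from 204-1097 at RT to 73632-119558 after cold over both genotypes. Skeletal muscle RNA was seen in 3 libraries. Of 28 muscle genes, 17 are listed, and their summed normalized count was 165781 in Atf4WT RT replicate 2, 56245 in Atf4WT cold replicate 0 and 7857 in Atf4AKO cold replicate 1, whereas the other 9 libraries had 1578 to 2654. Lymphocyte RNA differed between groups as well. All 8 listed B cell genes and all 9 T cell genes rose with cold in Atf4WT, with median log2 fold changes of 4.56 and 3.36, and 0 of these 17 passed in Atf4AKO (limma; medians -0.55 and -0.82). A lymphocyte score, the mean log2 level of these 17 genes in a library, was 7.19 to 9.70 in Atf4WT after cold and 3.36 to 4.88 in Atf4AKO after cold. Atf4WT RT replicate 2, which had the most muscle signal, also stood apart at 7.07, against 3.59 to 5.08 in the other 5 RT libraries. Leaving it out therefore changes both signals in the Atf4WT RT group. Results of the creatine cycle genes are also given without the 3 libraries with muscle signal. This does not remove the lymphocyte difference. The scores left in Atf4WT were 3.78 and 3.59 at RT and 9.21 and 9.70 after cold. Those left in Atf4AKO after cold were 4.88 and 3.62.

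Cold exposure moved genes within the creatine cycle in opposite directions. In Atf4WT iWAT, the creatine synthesis genes Gamt and Gatm fell and the phosphatase gene Alpl rose, while Ckb and Slc6a8 did not pass the test. In Atf4AKO iWAT, Gamt fell and Alpl rose. With limma on log2(normalized count + 1) and p-values adjusted over 13404 genes, 3 of 5 genes thus passed an adjusted p of 0.05 in Atf4WT and 2 of 5 in Atf4AKO. Of all genes tested, 31.9% passed in Atf4WT (17.0% higher and 14.9% lower after cold) and 25.9% in Atf4AKO (14.8% higher and 11.0% lower), so a call with cold exposure was common among all genes. The median log2 fold change of the 5 genes was -0.22 in Atf4WT and 0.17 in Atf4AKO, against 0.00257 and -0.03 for all genes tested. In both genotypes this median is the value of Slc6a8, which did not pass, and it does not describe a shift of the set. The study's own threshold, a fold change over 1.5 with an unadjusted p under 0.05, was passed by the same 3 and 2 genes, beside 21.2% and 17.2% of all genes. An unadjusted p under 0.05 was reached by 3 of 5 genes in each genotype, beside 43.4% of all genes in Atf4WT and 39.1% in Atf4AKO. When the 3 libraries with muscle signal were left out, 2 of 5 genes passed in each genotype, Gamt and Gatm in Atf4WT and Gamt and Alpl in Atf4AKO, beside 26.5% and 16.6% of all genes in that fit. With the lymphocyte score as a covariate, 2 of 5 passed in Atf4WT (Gamt and Alpl), beside 13.4% of all genes. Within Atf4WT the score itself went with cold, at 3.59 to 7.07 at RT and 7.19 to 9.70 after cold. Score and cold can therefore hardly be told apart in Atf4WT. The part of lymphocytes and muscle in these responses was not tested beyond these fits. The p-values measure the spread between libraries of different mice.

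**Figure D1:**
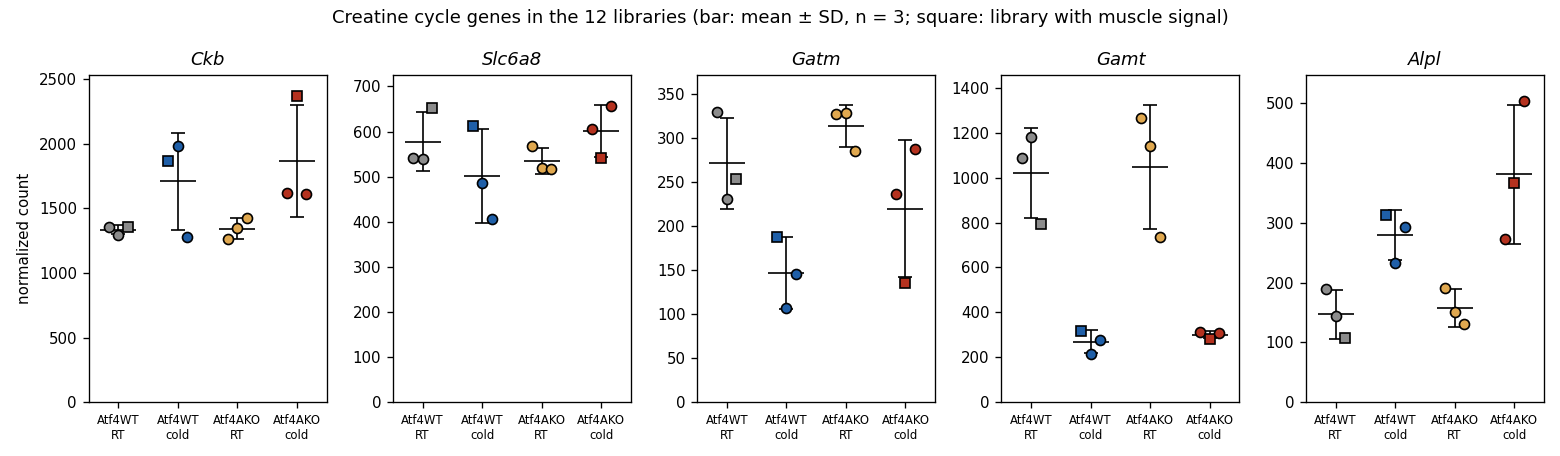
Normalized count (vertical axis, reads divided by the size factor of the library) of Ckb, Slc6a8, Gatm, Gamt and Alpl in each of the 12 libraries, by group, with the mean and SD (n = 3) as a bar and squares for the 3 libraries with muscle signal. Gamt drops to 214-317 in every cold-exposed library from 737-1266 at RT, and Alpl is higher after cold in both genotypes.

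Gamt, which encodes the enzyme of the final step of creatine synthesis, showed the largest cold response of the 5 genes. Its normalized counts in Atf4WT were 1087, 1180 and 794 at RT and 317, 214 and 279 after cold, for replicates 0, 1 and 2. In Atf4AKO they were 1266, 1142 and 737 at RT and 313, 283 and 307 after cold. All 6 cold-exposed libraries were below all 6 RT libraries, and replicate 2 was the lowest RT library in both genotypes. The mean fell from 1020 ± 202 to 270.1 ± 52.1 (SD, n = 3) in Atf4WT, which is 3.76-fold on the scale of log2(normalized count + 1). The log2 fold change was -1.91 with a standard error of 0.22 and an adjusted p of 0.000179 (limma). In Atf4AKO the mean fell from 1048 ± 277 to 301 ± 15.5, with a log2 fold change of -1.76, a standard error of 0.22 and an adjusted p of 0.000352 (limma). By p-value, Gamt ranked 175 in Atf4WT and 199 in Atf4AKO among the 13404 genes. Both calls held under all 24 alternative settings, including the fit without the libraries with muscle signal, where the log2 fold changes were -2.21 and -1.72, and the fit with the lymphocyte score, where Atf4WT had -1.43.

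Gatm encodes the enzyme of the first and rate-limiting step of creatine synthesis. Its normalized counts in Atf4WT were 330, 231 and 253 at RT and 188, 107 and 146 after cold. In Atf4AKO they were 327, 329 and 286 at RT and 237, 135 and 288 after cold. The Atf4WT groups did not overlap, whereas in Atf4AKO the highest cold-exposed library lay just above the lowest RT library. The mean fell from 271 ± 51.9 to 147 ± 40.7 (SD, n = 3) in Atf4WT, with a log2 fold change of -0.90, a standard error of 0.28 and an adjusted p of 0.0295 (limma). In Atf4AKO the means were 314 ± 24.3 and 220 ± 77.9, and the log2 fold change was -0.58, with a 95% interval from -1.19 to 0.03 and an adjusted p of 0.150 (limma). The Atf4WT call was lost with the lymphocyte score as a covariate (log2 fold change -0.70, adjusted p = 0.354, limma) and when any of 4 libraries was left out. The log2 fold change was -0.75 (adjusted p = 0.106, limma) without Atf4WT RT replicate 0 and -0.94 (adjusted p = 0.0535) without Atf4WT RT replicate 2, -0.69 (adjusted p = 0.109) without Atf4WT cold replicate 1 and -0.92 (adjusted p = 0.0644) without Atf4WT cold replicate 2. Without the 3 libraries with muscle signal, the log2 fold change was -1.14 with an adjusted p of 0.00834 in Atf4WT and -0.26 with an adjusted p of 0.433 in Atf4AKO.

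Levels of fibroblast and progenitor markers were also lower after cold exposure. The summed normalized count of 8 such genes ranged from 122591 to 149805 in Atf4WT at RT and from 33301 to 82059 after cold. In Atf4AKO it ranged from 118153 to 177529 at RT and from 30926 to 72252 after cold. All 8 were listed with reads in every library, and the log2 fold change was negative for each of them in both genotypes. The test was passed by 2 in Atf4WT and 3 in Atf4AKO, beside 14.9% and 11.0% of all genes called lower. Values of markers of other cell types were lower as well. A log2 fold change above 0 was seen for 0 of 6 macrophage and 0 of 7 Schwann cell genes in either genotype. Of all 13404 genes tested, 6734 were above 0 in Atf4WT and 6280 in Atf4AKO. The test was passed by 2 Schwann cell genes in Atf4WT and 0 in Atf4AKO, and by 0 macrophage genes in either. Lum, an extracellular matrix gene of fibroblasts, had means of 3032 ± 986 at RT and 1317 ± 561 after cold in Atf4WT (SD, n = 3). It was among the 3 genes whose pattern was most like that of Gatm, after Ssc5d and Slc17a5. These were picked by their correlation over the same 12 libraries, so this is a description only. The part of fibroblasts and the other cell types in the lower Gatm and Gamt values was not tested. In whole tissue, fewer cells of a type and less RNA per cell cannot be told apart.

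Slc6a8, which encodes the creatine transporter of the plasma membrane, did not pass the test in any comparison. Its normalized counts in Atf4WT were 540, 539 and 653 at RT and 613, 487 and 406 after cold. In Atf4AKO they were 567, 520 and 517 at RT and 606, 542 and 658 after cold. The RT and cold-exposed libraries overlapped in both genotypes, and within each Atf4WT group the library with muscle signal was the highest. The log2 fold change with cold was -0.22 (95% interval -0.54 to 0.11, adjusted p = 0.284, limma) in Atf4WT and 0.17 (95% interval -0.16 to 0.49, adjusted p = 0.425, limma) in Atf4AKO. As ratios of cold to RT, these intervals run from 0.688 to 1.08 in Atf4WT and from 0.898 to 1.40 in Atf4AKO. Without the 3 libraries with muscle signal these values were -0.28 and 0.24, neither of which passed the test.

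Ckb encodes the cytosolic creatine kinase B, for which a mitochondrial pool was described in thermogenic fat. Its normalized counts in Atf4WT were 1355, 1292 and 1355 at RT and 1865, 1980 and 1277 after cold. In Atf4AKO they were 1260, 1345 and 1422 at RT and 1620, 2370 and 1612 after cold. In Atf4WT, 2 of the cold-exposed libraries were above all RT libraries and replicate 2 was below them, while in Atf4AKO the groups did not overlap. The spread between replicates was wider after cold, with coefficients of variation of 22.1% in Atf4WT and 23.3% in Atf4AKO against 2.7% and 6.06% at RT. The log2 fold change was 0.33 (95% interval -0.05 to 0.71, adjusted p = 0.170, limma) in Atf4WT and 0.45 (95% interval 0.07 to 0.84, adjusted p = 0.0777, limma) in Atf4AKO. Neither passed the threshold, but both did without Atf4WT cold replicate 2. The adjusted p was then 0.0292 in Atf4WT (log2 fold change 0.53) and 0.0321 in Atf4AKO (0.45, limma). In Atf4AKO this library enters only through the shared estimate of the spread. With all libraries kept, DESeq2 on the recovered reads gave an adjusted p of 0.0406 in Atf4AKO. In the fit without the 3 libraries with muscle signal, which include the highest value, 2370 in Atf4AKO cold replicate 1, the log2 fold change was 0.26 in Atf4WT and 0.27 in Atf4AKO. With the lymphocyte score as a covariate it was 0.55 in Atf4WT and did not pass (adjusted p = 0.233, limma).

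Alpl, the gene of the tissue-nonspecific alkaline phosphatase, rose with cold exposure in both genotypes. Its normalized counts in Atf4WT were 189, 144 and 108 at RT and 313, 233 and 293 after cold. In Atf4AKO they were 191, 150 and 130 at RT and 272, 366 and 504 after cold. All 6 cold-exposed libraries were above all 6 RT libraries, and the highest level was reached in Atf4AKO cold replicate 2. The mean rose from 147 ± 40.9 to 279.8 ± 41.6 (SD, n = 3) in Atf4WT, with a log2 fold change of 0.95, a standard error of 0.26 and an adjusted p of 0.0181 (limma). In Atf4AKO the mean rose from 157 ± 31.4 to 381 ± 117, with a log2 fold change of 1.24, a standard error of 0.26 and an adjusted p of 0.00596 (limma). The Atf4AKO call held under all 24 alternative settings. The Atf4WT call was lost without the 3 libraries with muscle signal (log2 fold change 0.66, adjusted p = 0.146, limma), and with 1 library left out. The log2 fold change was then 0.74 (adjusted p = 0.0631, limma) without Atf4WT RT replicate 2, 0.86 (adjusted p = 0.0536) without Atf4WT cold replicate 0 and 0.91 (adjusted p = 0.0525) without Atf4WT cold replicate 2. With the lymphocyte score as a covariate it was 1.55 (adjusted p = 0.0218, limma). Atf4WT RT replicate 2, which stands apart in both muscle signal and lymphocyte score, had the lowest Alpl value of all 12.

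**Figure D2:**
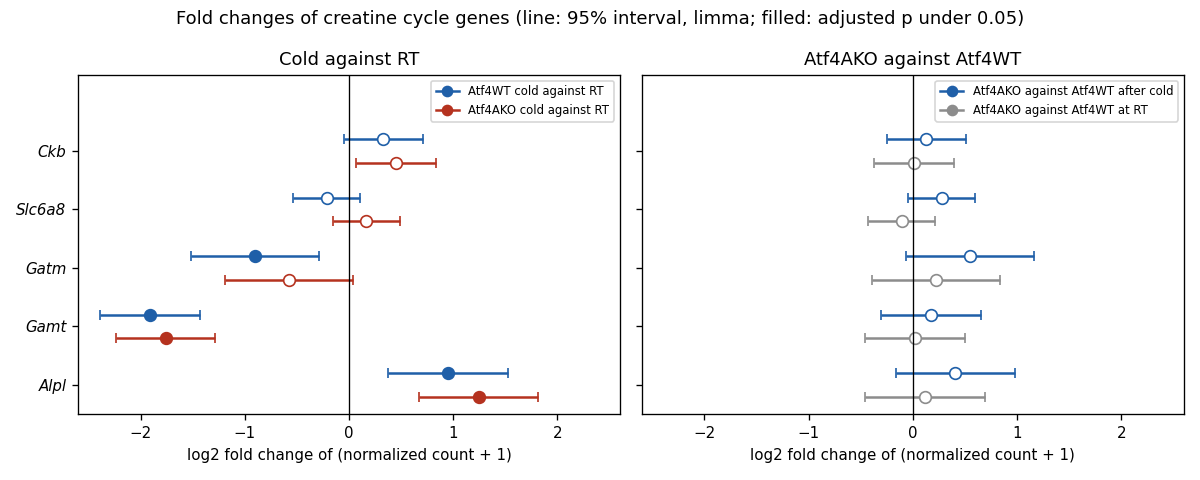
Log2 fold change of (normalized count + 1) on the horizontal axis for each creatine cycle gene, with cold against RT in each genotype on the left and Atf4AKO against Atf4WT at each temperature on the right. Lines are 95% intervals from limma and filled points have an adjusted p under 0.05, which holds for Gamt and Alpl in both genotypes and for Gatm in Atf4WT, and for no gene between genotypes.

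RT and cold-exposed groups did not overlap for 3 of 5 genes in Atf4WT (Gatm, Gamt and Alpl) and for 3 of 5 in Atf4AKO (Ckb, Gamt and Alpl), beside 46.8% and 41.7% of all genes tested.

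Loss of ATF4 in adipocytes was not accompanied by a detectable change of the creatine cycle genes. After cold exposure, 0 of 5 genes passed an adjusted p of 0.05 between Atf4AKO and Atf4WT in limma, 0 passed an unadjusted p of 0.05, and 0 passed with edgeR or DESeq2. Of all genes tested, 0.0298% (4 genes) passed the adjusted threshold, 11.7% an unadjusted p of 0.05 and 6.4% the study's threshold. The number of genes at the adjusted threshold depended on single libraries and on the fit, with 515 without Atf4WT cold replicate 0, 146 without Atf4WT RT replicate 2, 189 with the replicate number as a block and 591 with DESeq2. The log2 fold changes were all above 0, at 0.13 for Ckb, 0.17 for Gamt, 0.28 for Slc6a8, 0.41 for Alpl and 0.55 for Gatm, with adjusted p between 0.480 and 0.820 (limma). The 95% intervals ran from -0.25 to 0.51 for Ckb, from -0.30 to 0.65 for Gamt, from -0.05 to 0.60 for Slc6a8, from -0.16 to 0.98 for Alpl and from -0.06 to 1.16 for Gatm. The groups overlapped for all 5 genes, whereas 16.5% of all genes did not overlap.

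Gatm had the widest of these intervals, and its value depended on the libraries with muscle signal. With all libraries, the 3 Atf4WT cold-exposed libraries had 188, 107 and 146 normalized counts and the Atf4AKO libraries 237, 135 and 288, the lowest of the latter being the one with muscle signal. When they were left out, Gatm was higher in Atf4AKO, with a log2 fold change of 1.06 and an adjusted p of 0.0391 (limma), from 2 libraries in each group. In that fit 485 genes (3.62%) passed the threshold in this comparison instead of 4. The Atf4WT cold-exposed library left out also had the lowest lymphocyte score of its group, 7.19. The scores kept were 9.21 and 9.70 in Atf4WT and 4.88 and 3.62 in Atf4AKO. The part of muscle and lymphocytes in this Gatm value was not tested. With only 1 library left out at a time, the log2 fold change of Gatm ranged from 0.32 to 0.86 and did not pass.

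The genotypes also differed in lymphocyte RNA after cold exposure. The summed normalized count of 8 B cell genes ranged from 3657 to 12501 in the Atf4WT cold-exposed libraries and from 76.0 to 318 in those of Atf4AKO, and that of 9 T cell genes from 746 to 6038 and from 147 to 355. With the lymphocyte score as a covariate the sign of the genotype difference after cold turned for Ckb (-0.14), Gamt (-0.42) and Alpl (-0.33), with none of the 5 genes passing. The part of lymphocytes in these values was not tested further, and score and genotype cannot be told apart after cold, where the scores of the genotypes do not overlap.

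At RT, the groups of the 2 genotypes overlapped for all 5 genes, beside 6.3% of all genes that did not overlap. The log2 fold changes of Atf4AKO against Atf4WT were 0.01 for Ckb, 0.02 for Gamt, -0.11 for Slc6a8, 0.11 for Alpl and 0.22 for Gatm. Again 0 of 5 genes passed in limma at an adjusted or an unadjusted p of 0.05, and 0 with edgeR or DESeq2, beside 0.00746% of all genes at the adjusted and 1.53% at the unadjusted threshold.

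Whether cold acted differently in Atf4AKO and Atf4WT was tested as an interaction. The difference was 0.12 for Ckb, 0.15 for Gamt, 0.29 for Alpl, 0.33 for Gatm and 0.38 for Slc6a8 on the log2 scale, each the Atf4AKO response minus the Atf4WT response, and no gene passed (adjusted p from 0.843 to 0.996, limma). No gene at all passed in limma (0.0% of 13404), while 6.92% had an unadjusted p under 0.05 and 4.63% also passed the study's threshold, with 0 of the 5 creatine cycle genes in either. By the adjusted p, edgeR called 0 genes and DESeq2 128, none of them a creatine cycle gene. The 95% interval was -0.52 to 0.83 for Gamt, -0.07 to 0.84 for Slc6a8 and -0.54 to 1.19 for Gatm. A weaker fall of Gatm in Atf4AKO is therefore not shown, although it passed the test in only 1 genotype.

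**Figure D3:**
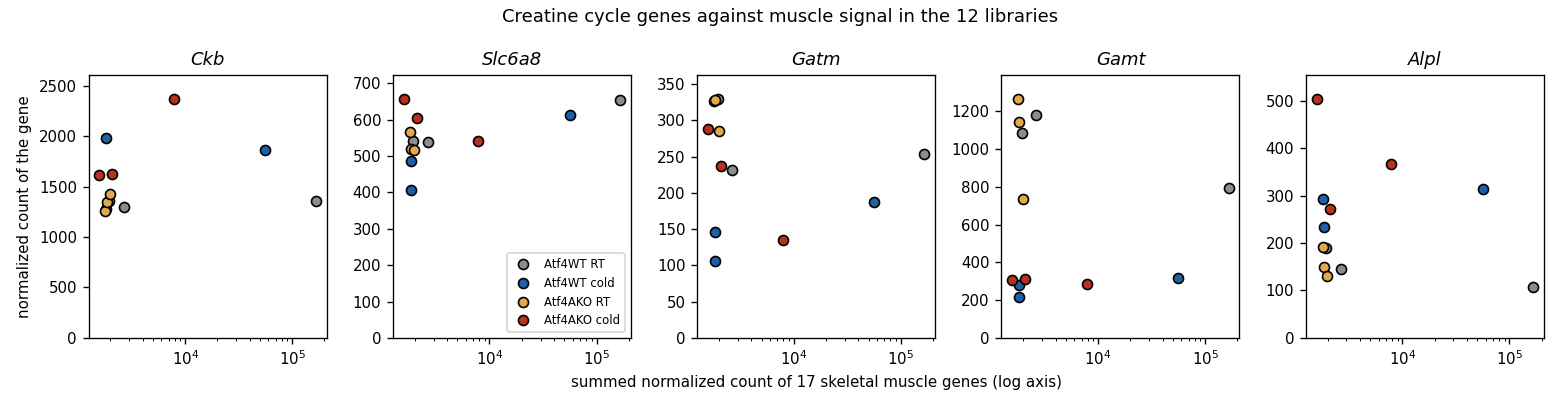
Normalized count of each creatine cycle gene (vertical axis) against the summed normalized count of 17 skeletal muscle genes (horizontal log axis) in the 12 libraries, coloured by group. The 3 libraries to the right carry 7857 to 165781 counts of muscle genes, and within Atf4WT groups they are highest for Slc6a8.

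Muscle signal was set against the genes directly, as striated muscle also uses creatine. Acta1, the skeletal muscle actin, had 35541, 13734 and 1314 normalized counts in the 3 libraries with muscle signal. In Atf4WT RT replicate 2, with the strongest signal, Ckb (1355) was equal to the value of replicate 0 within the rounding, Slc6a8 (653) was above both other replicates, Gatm (253) lay between them, and Gamt (794) and Alpl (108) were below both. In Atf4WT cold replicate 0, Slc6a8 (613), Gatm (188), Gamt (317) and Alpl (313) were each the highest of the group and Ckb (1865) was not. In Atf4AKO cold replicate 1, Ckb (2370) was the highest of the group, and Slc6a8 (542), Gatm (135) and Gamt (283) were the lowest. Only for Slc6a8 in the Atf4WT groups did the highest value of both groups fall on the library with muscle signal. With a muscle score, the mean log2 level of the muscle genes, as a covariate, the counts of genes called with cold were the same, 3 of 5 in Atf4WT and 2 of 5 in Atf4AKO. In that fit, 2180 of all 13404 genes were called higher and 1922 lower in Atf4WT, and 1891 and 1308 in Atf4AKO.

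To compare levels between genes, normalized counts were divided by the exon length in kilobases, from 1036 bases for Gamt to 3964 bases for Slc6a8. In Atf4WT at RT, Gamt (985 ± 195 per kilobase) and Ckb (906 ± 24.5) were the most abundant and their ranges overlapped. Slc6a8 (146 ± 16.5) and Gatm (114 ± 21.7), which also overlapped, were followed by Alpl (58.3 ± 16.2), whose range lay below that of Gatm. After cold exposure in Atf4WT, the order was Ckb (1160 ± 256), Gamt (261 ± 50.3), Slc6a8 (127 ± 26.4), Alpl (111 ± 16.5) and Gatm (61.5 ± 17.0), and of the neighbours in this order only Slc6a8 and Alpl overlapped. In Atf4AKO the order at RT was Gamt (1012 ± 267), Ckb (912 ± 55.3), Slc6a8 (135 ± 7.11), Gatm (131 ± 10.2) and Alpl (62.3 ± 12.4). After cold it was Ckb (1268 ± 296), Gamt (291 ± 15.0), Slc6a8 (152 ± 14.6), Alpl (151 ± 46.2) and Gatm (92.1 ± 32.6), with overlapping ranges of Slc6a8 and Alpl and of Alpl and Gatm. Ckb and Gamt were thus at a similar level per length at RT, and after cold Ckb lay above Gamt without overlap in both genotypes.

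Across the 12 libraries, Pearson's r of log2 levels was 0.77 between Gatm and Gamt, -0.75 between Gamt and Alpl and -0.72 between Ckb and Gamt. The libraries share their group, so these values mainly hold the cold response. After subtraction of the group means, r was 0.46 for Gatm and Gamt, 0.62 for Gamt and Alpl and -0.34 for Ckb and Gamt. The value for Gamt and Alpl is pooled over groups, and in Atf4AKO after cold the library highest for Gamt (313) was the lowest for Alpl (272).

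The 3 genes with the pattern most like each creatine cycle gene were found among the 11842 genes whose mean normalized count was 50 or more, by Pearson's r of log2 levels over the 12 libraries. For Gamt they were Scn7a (0.99), Itgb5 (0.99) and Htra1 (0.99). For Gatm they were Ssc5d (0.95), Slc17a5 (0.95) and Lum (0.95), and for Alpl Ap1g1 (0.98), Tesk1 (0.98) and Ube3c (0.97). For Ckb they were Dedd (0.96), Cox14 (0.96) and Ogfod2 (0.95). As the genes were picked by r over the same libraries, these values describe the choice. The values were lowest for Slc6a8, with Mtmr11 (0.86), Elac1 (0.85) and Pfn2 (0.84).

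The surrounding pathway was described by a list of 31 further genes of creatine export, arginine and methyl donor supply, adenylate kinases, nucleotide and phosphate carriers, and other phosphatases, of which 23 are listed and 20 were tested. The creatine kinase genes Ckm and Ckmt1 have no row and were not analysed here, like Ckmt2. Every listed gene has at least 1 read in every library, so a missing row does not show that a gene had no reads. With cold exposure 7 of the 20 rose in Atf4WT and 8 of 20 in Atf4AKO, and 0 fell in limma, beside 17.0% and 14.8% of all genes tested that rose. The median log2 fold change of the 20 genes was 0.25 in Atf4WT and 0.30 in Atf4AKO. All 7 genes that rose in Atf4WT also rose in Atf4AKO. With the 3 libraries with muscle signal left out, 5 and 6 of the 20 rose, Enpp1 among the 5, beside 13.8% and 9.46% of all genes in that fit.

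Phospho1, which encodes a cytosolic phosphatase of phosphocholine and phosphoethanolamine, had the largest change. Its normalized counts in Atf4WT were 138, 160 and 177 at RT and 2641, 1922 and 2240 after cold. In Atf4AKO they were 165, 146 and 97.4 at RT and 2552, 2813 and 3071 after cold. No cold-exposed library was below 1922 and no RT library above 177, and the log2 fold changes were 3.83 (adjusted p = 1.72e-06, limma) and 4.39 (adjusted p = 5.86e-07, limma).

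The remaining genes that rose belong to the exchange of nucleotides and phosphate across membranes. Slc20a1, a sodium-phosphate importer of the plasma membrane, rose by 1.02 on the log2 scale in Atf4WT and by 0.88 in Atf4AKO. The channels of the outer mitochondrial membrane rose, by 0.35 and 0.45 for Vdac1, by 0.69 and 0.76 for Vdac2 and by 0.52 and 0.49 for Vdac3. The ADP/ATP carrier gene Slc25a5 rose by 0.62 and 0.72 and the mitochondrial phosphate carrier gene Slc25a3 by 0.43 and 0.55. Slc25a4, the other listed ADP/ATP carrier gene, rose by 0.45 in Atf4AKO and had 0.23 in Atf4WT, which did not pass. Among genes of creatine export (Slc16a12), arginine and methyl donor supply (Asl, Mat2a, Mat2b and Ahcy) and the adenylate kinases (Ak1 to Ak5), 0 of 10 passed in either genotype with limma. Ak5 had a log2 fold change of -0.73 in Atf4AKO (unadjusted p = 0.0458, adjusted p = 0.120, limma), which passes the study's threshold only. Of these 20 genes, 0 passed between genotypes with limma at either temperature. After cold, 1 of the 20 passed the study's threshold only, beside 6.4% of all genes tested. This was Enpp1, which makes pyrophosphate and had 8 to 163 reads per library. Its log2 fold change was -1.85 in Atf4AKO against Atf4WT (unadjusted p = 0.00884, adjusted p = 0.189, limma).

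**Figure D4:**
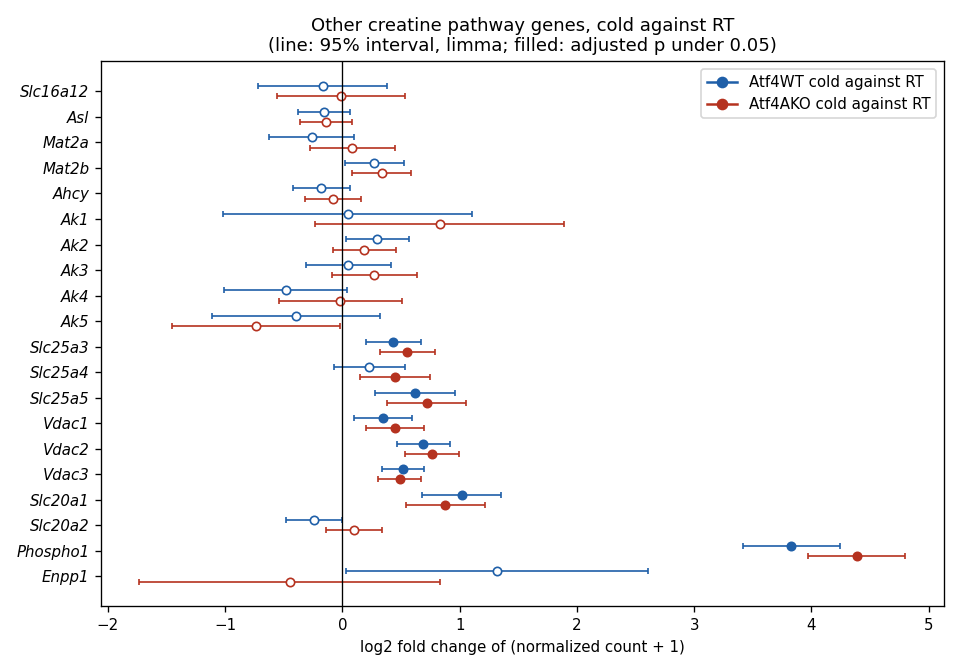
Log2 fold change of (normalized count + 1) with cold exposure (horizontal axis) for the 20 tested genes of the surrounding creatine pathway, in Atf4WT and Atf4AKO, with 95% intervals from limma and filled points for an adjusted p under 0.05. Phospho1 lies far to the right at 3.83 and 4.39, and the filled points are otherwise the carriers and channels.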

How the data were processed

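Whole iWAT of 12 mice in 4 groups was sequenced as polyadenylated RNA from strand-specific libraries. Read filtering (SOAPnuke), mapping to mm10 (STAR), counting of uniquely mapped reads per gene (featureCounts) and normalization (pyDESeq2) were done by the authors. The deposited values are thus a normalized signal, the reads of a gene divided by the size factor of the library. Tool versions and the strand setting of the counting are not given in the sources used here. All 12 columns were used. Whole reads were recovered for 100% of values (tolerance 0.001 reads) on division by the lowest value in the library. Each of the 14159 listed genes has at least 1 read in every library.

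The main test was limma 3.58.1 (R 4.3.3) with eBayes and a variance trend on log2(normalized count + 1), with the 4 group means and no covariates, for 13404 genes with a mean of at least 10 (755 were under this filter). P-values were adjusted by Benjamini-Hochberg over all genes tested, and genes were called at an adjusted p under 0.05. edgeR 4.0.16 (quasi-likelihood) and DESeq2 1.42.0 were run on the recovered reads as alternatives. The other alternatives were pseudocounts of 0.5 and 5, no filter, a filter at 50, only the 2 groups compared, scaling to the 75th percentile, the replicate number as a block, a muscle or lymphocyte score as a covariate, leaving out the 3 libraries with muscle signal or each library in turn, and the study's threshold. Named genes are the members, the other pathway genes, with values for those called with cold, and the 3 genes most alike to each member; Lum, Enpp1, Ak5, Acta1 and the genotype and browning checks Atf4 and Ucp1 were added after their values were seen. The members, lists and tests were chosen with earlier results of these data known. The 5 genes had 101 to 2090 reads per library. The main limma fit was tested on a simulated data set with changes placed in Atf4WT cold. The alternative fits were not tested in this way. Tables and plots were made in Python 3.11.15 (numpy 2.4.6; pandas 2.3.3; matplotlib 3.10.9).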

Additional observations from a re-analysis of the deposited data

How the results depend on the processing

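Over 595 alternative values of the 5 genes, 557 kept their direction and side of the threshold. A call was lost by 9 and gained by 4, and 25 turned their sign. The sign changes were all among genotype differences and differences of the cold responses that had not passed. All 9 lost calls were cold responses in Atf4WT, 5 of Gatm and 4 of Alpl, each over 24 settings. Most of the 595 values belong to results that had not passed in the main fit. With the lymphocyte score as a covariate, the genotype difference after cold was -0.14 for Ckb, -0.42 for Gamt and -0.33 for Alpl, that at RT was -0.0060 for Ckb and -0.0080 for Gamt, and the difference of the cold responses was -0.13 for Ckb, -0.41 for Gamt and -0.40 for Alpl; the call of Gatm with cold in Atf4WT was lost (-0.70, adjusted p = 0.354, limma). Ckb at RT was -0.0017 with scaling to the 75th percentile, and Gamt at RT -0.040 with the muscle score. Without the 3 libraries with muscle signal, Gamt (-0.15) and Alpl (-0.090) turned at RT, and the number of creatine cycle genes called between genotypes after cold was 1 (Gatm) instead of 0. With 1 library left out, the values at RT ranged from -0.035 to 0.052 for Ckb, from -0.15 to 0.26 for Gamt and from -0.090 to 0.31 for Alpl, those after cold from -0.066 to 0.25 for Ckb, and the differences of the cold responses from -0.074 to 0.24 for Ckb and from -0.084 to 0.32 for Gamt. The number of creatine cycle genes called with cold ranged from 1 to 3 in Atf4WT and from 2 to 3 in Atf4AKO. In Atf4WT it was 1 (Gamt) without Atf4WT RT replicate 2. There 1909 of all 13404 genes were called higher and 1698 lower, instead of 2273 and 2000 in the main fit. In Atf4AKO it was 3 with DESeq2 (2253 higher and 1758 lower of 13552 genes). It was also 3 without Atf4WT cold replicate 2 (2008 higher and 1548 lower of 13404). By the study's threshold, 5 of the other pathway genes passed with cold in Atf4AKO (4 higher, and Ak5 lower) instead of 8 higher. Between genotypes after cold, 1 passed instead of 0. The study's threshold was passed by 17.2% and 6.4% of all genes in these comparisons. Of all genes, limma called 4 between genotypes after cold, edgeR 3 and DESeq2 591. The causes of these shifts were not tested.

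The replicate numbers were not taken as pairs in the main fit. Same-numbered libraries of different groups had deviations from the group means with r between -0.19 and 0.39. The value was over 0.1 in 9 of 18 pairs (all 6 pairs of replicate 1 among them), and 6 of 12 libraries correlated best with their own number. These values do not settle whether the numbers mark pairs, so the fit with a replicate block is given as well. With the number as a replicate block, 3 of 5 creatine cycle genes were called with cold in Atf4WT and 2 of 5 in Atf4AKO, and 8 and 9 of the 20 other pathway genes, beside 36.2% and 30.8% of all genes. Between genotypes after cold the block gave 189 genes instead of 4, with 0 creatine cycle genes. With 3 libraries a group, precision differs by gene, and the 95% interval of the genotype difference after cold reaches a log2 value of 0.51 for Ckb and 1.16 for Gatm. The fit with only the groups compared does not exist for the difference of the cold responses.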
